A study of Arabidopsis thaliana with 36 samples.

Results

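In this Arabidopsis thaliana spaceflight series, intact seedlings of the ecotype WS were compared with seedlings cut into leaves, hypocotyls and roots. On the ground control arrays, 5849 of 22746 probe sets had whole-plant signals that left the range of the organs. The members were chosen by a rule on signals of Affymetrix ATH1 arrays, taken as log2 values: all 3 ground whole-plant arrays above the highest of the 15 ground organ arrays (2850 members, 12.5% of all probe sets), or all 3 below the lowest (2999 members, 13.2%). Because the rule used the ground signals, these are given as a description without a test, and the 18 flight arrays, which the rule did not use, served as the check.

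Each environment had 18 arrays: 3 of whole plants, 1 from each of plates 2, 4 and 6, and 5 of each organ, 1 from plate 2 and 2 each from plates 4 and 6. Flight plants grew on the International Space Station and ground control plants in a matched chamber at Kennedy Space Center; both were fixed in RNAlater at 12 days of age, and organs were cut from the fixed seedlings. The samples called leaves here are titled SHOOTS in the labels. Whole-plant samples were WS only, and organ samples were 60% WS and 40% Col-0, each from a pool of plants. All seedlings carried GFP reporter transgenes, named in the labels as Adh::GFP (alcohol dehydrogenase promoter), DR5::GFP (a synthetic auxin response element) and UB::GFP (35S promoter of cauliflower mosaic virus). The labels give 1 RNA kit and 1 cDNA amplification kit for all samples and do not say whether whole plants and organs were processed together. Ecotype, dissection and any difference in processing therefore cannot be told apart between whole plants and organs, and nothing in the labels says that the plates within a group are independent cultures beyond being separate plates.

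A whole seedling holds all of its organs, so a transcript in a plain mixture of leaves, hypocotyls and roots is expected to have a share between its lowest and its highest share among them. WS and Col-0 are inbred Arabidopsis lines that differ in sequence and in the presence of some genes, and a probe designed on Col-0 can bind a WS transcript less well. Nuclear messenger RNAs end in a long poly(A) tail, while most transcripts of plastids and mitochondria do not, and cDNA made from the tail favours the 3′ end of a transcript over its 5′ end. In these bulk samples, fewer cells of a type and less RNA per cell cannot be told apart.

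The ground members recurred on the flight arrays. Of the 2850 members above the organ range, 2205 (77.4%) also had all 3 flight whole-plant signals above all 15 flight organ signals, a pattern found in 12.6% of all probe sets. Of the 2999 members below, 2302 (76.8%) were again below all flight organ arrays, against 12.8% of all probe sets. No member moved to the opposite side of the organ range in flight. By the signs of the mean differences alone, 4 members above were lower than every organ in flight and 2 members below were higher than every organ. In limma, a probe set was called when flight whole plants differed from each of the 3 organs in 1 direction, with the largest of the 3 p-values adjusted over all probe sets and under 0.05. By this test 2019 members above (70.8%) were called higher, against 10.7% of all probe sets, and 2417 members below (80.6%) were called lower, against 13.9%.

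Members with a narrow gap recurred least often. The gap is the log2 distance between the whole-plant array and the organ array that lie closest to each other. Its median was 0.59 for members above and 0.51 for members below, and it reached 7.39 above and 3.98 below. The share of WS plants in whole-plant samples was 0.74 log2 units over that in organ samples. A gap wider than this was found in 1195 members above (41.9%) and 1058 members below (35.3%). What part ecotype had in the gaps was not tested. Members above with a gap under 0.25 recurred in 47.5% of cases, those with a gap of 1 to 2 in 96.9%, and all 236 with a gap of 2 or more. Below the organ range the same shares were 53.2%, 94.8% and 91.3%, the last being 63 of 69. Outside the members, 3.3% of the other probe sets lay above the organ range in flight and 3.08% lay below it.

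**Figure D1:**
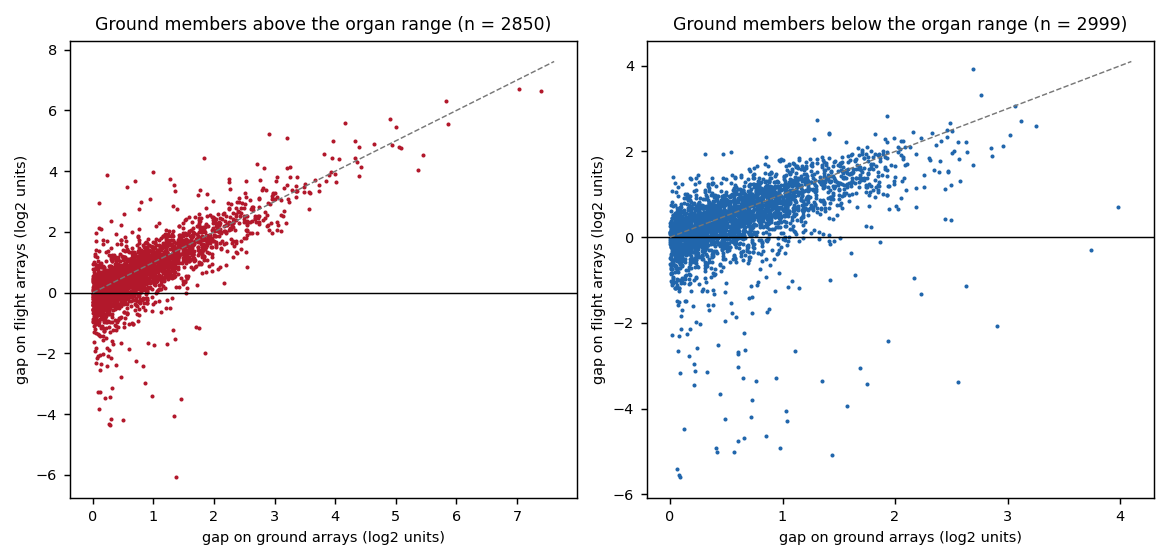
Gap between whole plants and organs on flight arrays (vertical axis, log2 units) against the same gap on ground arrays (horizontal axis, log2 units), for ground members above the organ range (left, 2850 probe sets) and below it (right, 2999 probe sets). Points over the solid line recurred in flight, and the dashed line marks equal gaps; most points lie over the solid line, and all 236 members above with a ground gap of 2 or more do.

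The array control probe sets differed between whole plants and organs in both environments. For actin, the log2 signal of the 3′ probe set minus that of the 5′ probe set was -0.35 to -0.18 in ground whole plants and 2.14 to 4.14 in ground organs, and -0.01 to 0.20 in flight whole plants and 2.93 to 3.68 in flight organs. For ubiquitin the order was the other way, with 2.1 to 2.29 in ground whole plants and 0.45 to 1.31 in ground organs, while for GAPDH the ranges overlapped, at 0.34 to 0.53 in ground whole plants and 0.26 to 1.35 in ground organs. The 25S ribosomal RNA probe set had log2 signals of 13.86 to 15.05 in ground whole plants and 12.73 to 14.04 in ground organs. Median signals of the arrays overlapped, at 175.1 to 184.0 in ground whole plants and 165.0 to 191.0 in ground organs, and the mean whole-plant signal of a probe set differed from its mean organ signal by a median of 0.03 log2 units on the ground and 0.13 in flight. These control values moved with the comparison of whole plants and organs, and their part in the results was not tested.

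The widest gaps above the organ range belonged to transcripts that were dim in every organ array and bright in every whole-plant array. AT4G22500, a locus that the current reference table does not hold, had signals of 15391, 17447 and 12799 on the 3 ground whole-plant arrays, against 5.55 to 76.2 (median 43.9) on the 15 organ arrays. In flight its signals were 16900, 15055 and 8849, against 2.57 to 89.4 (median 44.2) in organs. AT4G22480 had 7743, 7701 and 6366 in ground whole plants, against 55.1 to 154 (median 85.1) in organs. The rule sets the ground separation of both genes, and in flight the gaps were 6.63 for AT4G22500 and 4.03 for AT4G22480. AT3G22130 had 10637, 13622 and 12929 in ground whole plants, against 12.7 to 186 (median 60.6) in organs. AT5G60030, of no stated function in the array annotation, had 5222, 5916 and 4657 in ground whole plants, against 6.11 to 106 (median 81.1) in organs. The flight differences of these genes from the nearest organ were 8.54 ± 0.91 log2 units for AT4G22500, 5.48 ± 0.64 for AT4G22480, 8.03 ± 0.68 for AT3G22130 and 5.58 ± 0.39 for AT5G60030 (each ± SE), with adjusted p-values of 2.6e-06, 6.4e-06, 2.6e-07 and 4.1e-08 by limma. Organ signals of these genes are near background, so the size of each difference rests on dim values: with the 25th percentile of signals added before log2, AT4G22500 differed by 7.34 and AT3G22130 by 7.21.

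Several of the other genes with wide gaps above the organ range act in the nucleus. NF-YB11, a subunit of the CCAAT-binding nuclear factor Y, had 4325, 4224 and 3564 in ground whole plants, against 38.5 to 143 (median 96.6) in organs, and was 5.76 ± 0.34 log2 units over roots in flight (adjusted p = 7.2e-09). HB-1, a homeodomain protein, had 4961, 4619 and 5440 in ground whole plants, against 126 to 276 (median 171) in organs, and was 4.75 ± 0.24 over hypocotyls in flight (adjusted p = 2.7e-09). TTN7, the cohesin subunit that holds sister chromatids together, had 1825, 2085 and 1628 in ground whole plants, against 36.4 to 107 (median 54.8) in organs, and was 4.66 ± 0.29 over roots in flight (adjusted p = 1.1e-08). Their separation on the ground follows from the rule, and in flight their whole-plant signals also lay above all organ signals. AT2G25650, annotated as a transcription regulator, had a ground gap of 4.40, AT4G16980 of 4.93, AT3G57930 of 3.99, AT3G50690 of 3.89 and AT5G23890 of 3.74. All 12 of the widest members above recurred in flight and were called higher there.

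Below the organ range, the transcripts with the widest gaps were measured well in all organs. AT1G13930, annotated with the response to salt, had 485, 582 and 862 in ground whole plants, against 7488 to 19183 (median 13204) in organs, and 738, 620.3 and 946 in flight whole plants, against 6223 to 16170 (median 10866) in flight organs. UBC28, a ubiquitin-conjugating enzyme, had 731, 762 and 962 in ground whole plants, against 6990 to 16212 (median 10890) in organs. AOC4, an allene oxide cyclase of jasmonate synthesis, had 100.4, 134 and 103 in ground whole plants, against 1092 to 3484 (median 1982) in organs. These 3 genes were lower in every whole-plant array than in any organ array of the same environment, and in flight they were -3.21 ± 0.19, -3.19 ± 0.30 and -3.68 ± 0.36 log2 units from leaves, the nearest organ (adjusted p = 7.5e-09, 8.9e-07 and 1.2e-06).

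The other members with wide gaps below included genes of several compartments. AT2G46490, of no stated function, had the widest gap of the members below that have 1 locus and are not low-signal (a mean ground signal in the lowest 40% of all probe sets), with 119, 105 and 93.4 in ground whole plants, against 1125 to 2397 (median 1422) in organs. ISU1, a scaffold on which iron-sulfur clusters are built in mitochondria, had 238, 149 and 230.3 in ground whole plants, against 1489 to 2397 (median 1866) in organs. J11, a DnaJ co-chaperone, had 74.9, 149 and 148 in ground whole plants, against 1007 to 3777 (median 2262) in organs, and emb1273, a gene needed for embryo development, had 13.2, 29.8 and 1.6, against 192 to 511 (median 283). For all of these the ground separation follows from the rule, and flight whole plants also lay below all flight organ arrays. AT1G26470 had a ground gap of 3.07, AT1G73490 of 2.96, AT4G30650 of 2.85, AT2G33220 of 2.69 and AT1G78890 of 2.63. Each of the 12 widest members below under this filter recurred in flight and was called lower there. The differences of AT4G30650 from leaves and J11 from roots were -2.62 ± 0.26 and -4.07 ± 0.29 log2 units. For emb1273, whose flight whole-plant signals were 9.6, 2.93 and 2.52, the difference from hypocotyls was -5.71 ± 0.39, or -2.56 with the 25th percentile of signals added before log2, so its size rests on values near background.

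**Figure D2:**
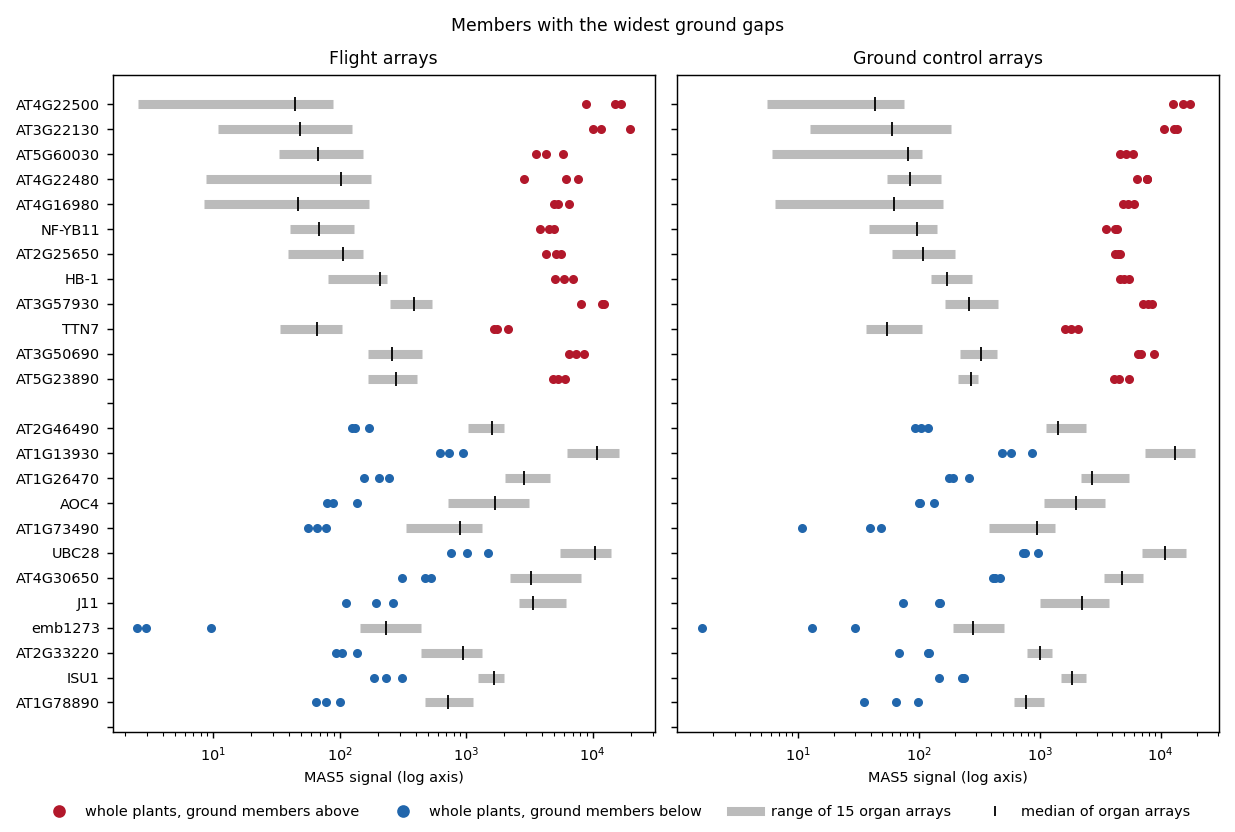
MAS5 signal (log axis) of the 12 members above and the 12 members below with the widest ground gaps, on flight arrays (left) and ground control arrays (right). Points are the 3 whole-plant arrays, grey bars run over the 15 organ arrays and ticks are their medians; in every row the points lie outside the grey bar in both environments.

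Transcripts of the mitochondrial and plastid genomes stood high in whole plants. The array holds 155 probe sets without a nuclear locus, named after organelle genes. Of these, 57 (36.8%) lay above the organ range on the ground and 3 (1.94%) below, against 12.5% and 13.2% of all probe sets. In flight 56 of the 57 recurred, against 77.4% of all members above. Of 32 probe sets assigned to the mitochondrial genome, 20 (62.5%) were above and 1 below. Of 67 assigned to the plastid genome, 21 (31.3%) were above and 1 below, and all but psbI among the 21 recurred in flight. The other 56 carried names that could not be assigned. The mean log2 signal over the mitochondrial probe sets was 9.45 to 9.75 in ground whole plants and 5.90 to 8.41 in ground organs, and 9.44 to 9.61 in flight whole plants and 6.06 to 7.20 in flight organs. Over the plastid probe sets the ground ranges overlapped, with 13.24 to 13.39 in whole plants and 7.78 to 13.49 in organs.

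Several mitochondrial members were dim in all organs. The open reading frame orf294 had 13824, 14361 and 14489 in ground whole plants, against 21.7 to 106 (median 52.1) in organs, and 10100, 14024 and 15048 in flight whole plants, against 26.5 to 96.6 (median 67) in flight organs. For nad5, a subunit of respiratory complex I, the 2 probe sets (the second of low mean signal) had 9262, 8620 and 8745 and 1612, 1750 and 1699 in ground whole plants, against 38.8 to 259 (median 76) and 3.13 to 135 (median 66.7) in organs. The complex I subunit nad4L had 5070, 4688 and 3811 in ground whole plants, against 33.9 to 246 (median 97.9) in organs. All of these whole-plant signals lay far outside the organs, by at least 3.58 log2 units. The cytochrome oxidase subunit cox1 had 6584, 7574 and 7459 in ground whole plants, against 465 to 1839 (median 909.8), and the maturase matR, of low mean signal, had 1204, 1046 and 901, against 1.83 to 121 (median 3.19). In flight, orf294 was 7.47 ± 0.31 log2 units over leaves (adjusted p = 3.8e-10) and matR 8.23 ± 0.75 over roots (adjusted p = 5.3e-07).

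In the 21 plastid probe sets above the organ range, ground whole plants exceeded leaves by the rule itself, while most of the 67 lay inside or overlapped the range. The photosystem I reaction centre gene psaA had 17405, 20490 and 15881 in ground whole plants, against 5.48 to 1717 (median 45.9) in organs, and psaC, a photosystem I subunit, had 22456, 23558 and 22557, against 3.5 to 4950 (median 67). The ATP synthase subunit atpI had 6909, 4877 and 5710 in ground whole plants, against 1.93 to 1319 (median 56.7) in organs. In flight psaA was 6.51 ± 0.90 log2 units over leaves, the nearest organ (adjusted p = 3.9e-05), and rbcL, the large subunit of Rubisco, was 2.91 ± 0.46 over leaves (adjusted p = 1.4e-04). The plastid probe set below the range was psbM, a small photosystem II subunit, with 1968, 1311 and 2725 in ground whole plants, against 6516 to 60134 (median 21084) in organs, and -2.86 ± 0.36 log2 units from roots in flight (adjusted p = 1.4e-05).

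Nuclear genes were grouped by the annotation deposited with the arrays. The 18 annotation groups below were chosen after their shares had been seen, so their ground counts are descriptions, set against 12.5% above and 13.2% below over all probe sets. Groups that handle RNA held more members above. Of 67 RNA splicing probe sets, 22 (32.8%) were above and 8 below, and all 22 recurred in flight and were called higher there. Of 84 RNA processing probe sets, 26 (31.0%) were above, of which 21 recurred, and 13 were below. PRP40A, a component of the U1 splicing particle, had 2291, 1873 and 1653 in ground whole plants, against 180.1 to 431 (median 309.6) in organs. CDC5, a core spliceosome-associated protein, had 3608, 3361 and 3528 in ground whole plants, against 531 to 1118 (median 786) in organs. In flight PRP40A was 2.52 ± 0.19 log2 units over hypocotyls (adjusted p = 7.9e-08) and CDC5 1.8 ± 0.22 (adjusted p = 9.0e-06). Not every splicing factor shared this direction, since SR45, a serine-arginine splicing protein, had 132, 120.4 and 162 in ground whole plants, against 400.2 to 671 (median 479) in organs.

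Microtubule motors, aminoacyl-tRNA ligases and genes of protein folding, nuclear pores and chloroplast organization also had larger shares above the organ range than all probe sets. Microtubule motors had 20 of 67 probe sets above (29.9%) and 2 below, with 16 of the 20 recurring in flight. The kinesin AT3G12020 had 1381, 1600 and 1159 in ground whole plants, against 46.5 to 210.3 (median 104) in organs, while KINESIN-13A had 558, 559 and 456, against 747 to 1698 (median 1129). Aminoacyl-tRNA ligases, the enzymes that charge transfer RNAs, had 14 of 54 above (25.9%) and 5 below. Protein folding genes had 61 of 241 above (25.3%) and 29 below, nuclear pore genes 10 of 35 (28.6%) and 4, and chloroplast organization genes 12 of 43 (27.9%) and 3. Of these members above, 47, 7 and 12 recurred in flight. For the nuclear pore the flight arrays showed no lean, with 7 probe sets above the organ range and 7 below. The median difference of its whole plants from organs was -0.04 log2 units on the ground and -0.16 in flight. Of 45 genes annotated with the floral transition of the meristem, 16 (35.6%) were above, among them DCL1, the enzyme that cuts microRNA precursors, with 2629, 2802 and 3225 in ground whole plants, against 262 to 778 (median 478) in organs. In flight DCL1 was 2.01 ± 0.30 log2 units over hypocotyls (adjusted p = 7.9e-05).

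The groups with many members below were those of protein synthesis, protein turnover and respiration. These groups are bright, with medians from percentile 93.0 (proteasome) to 98.9 (large ribosomal subunit) of mean ground signal. Over all probe sets the share below was 28.2% in the ninth and 35.8% in the brightest of 10 classes by mean ground signal. Cytosolic small ribosomal subunit proteins had 50 of 101 probe sets below (49.5%) and 7 above, and large subunit proteins 48 of 123 (39.0%) and 10. The large subunit share is thus near that of the brightest class. The small subunit protein P40 had 3127, 2795 and 2949 in ground whole plants, against 10920 to 16937 (median 12237) in organs, and was -2.06 ± 0.16 log2 units from leaves in flight (adjusted p = 1.1e-07). A second ribosomal gene, AT3G60770, had 2418, 1977 and 1767 in ground whole plants, against 10600 to 18626 (median 12434) in organs. Ribosomal proteins belong to families of near-identical copies, which the probe sets may not tell apart, and they are among the brightest on the array, with a median at the 98.6th percentile of mean ground signal for the small subunit. Proteasome subunits, which degrade proteins marked with ubiquitin, had 26 of 55 below (47.3%) and 6 above. PBA1, a catalytic core subunit, had 806, 891 and 746 in ground whole plants, against 3109 to 6052 (median 3986) in organs, and was -1.97 ± 0.18 from hypocotyls in flight (adjusted p = 5.4e-07). Nuclear-encoded subunits of mitochondrial complex I had 20 of 34 below (58.8%) and 2 above, with 19 of the 20 recurring, which is the opposite side from the mitochondrially encoded nad genes. The complex I gene AT2G42310 had 526, 796 and 338 in ground whole plants, against 3165 to 6571 (median 4478) in organs.

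Transport from the endoplasmic reticulum to the Golgi, peroxisomal and sterol genes followed on the same side. Of 28 probe sets for that transport step, 15 (53.6%) were below and 2 above, and of 27 for fatty acid beta-oxidation 12 (44.4%) were below and 1 above. TED3, a peroxisome biogenesis factor, had 140.5, 139 and 151 in ground whole plants, against 336 to 614 (median 416) in organs. Photorespiration had 15 of 39 below (38.5%) and 2 above, and sterol synthesis 11 of 31 (35.5%) and 3. The photorespiration share is near the 35.8% of the brightest class of all probe sets, and its median lies at percentile 93.2 of mean ground signal. The photorespiration group overlaps with complex I, since AT2G33220 and CIB22 of that complex are among its members below, and the beta-oxidation group holds the peroxisome biogenesis factor TED3. HYD1, a sterol isomerase, had 368, 378 and 381 in ground whole plants, against 2088 to 3806 (median 2435) in organs, and was -2.78 ± 0.16 log2 units from leaves in flight (adjusted p = 4.9e-09). Water channels had 7 of 35 below (20%) and none above. Their median lies at percentile 63.8 of mean ground signal, in the seventh class. That class had 18.9% of all probe sets below, so the share is near that of probe sets of like signal. PIP2A of the plasma membrane had 1308, 1557 and 1664 in ground whole plants, against 2620 to 14133 (median 8234) in organs. Cell wall loosening genes, mostly expansins, had 1 of 33 below (3.03%) and none above.

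**Figure D3:**
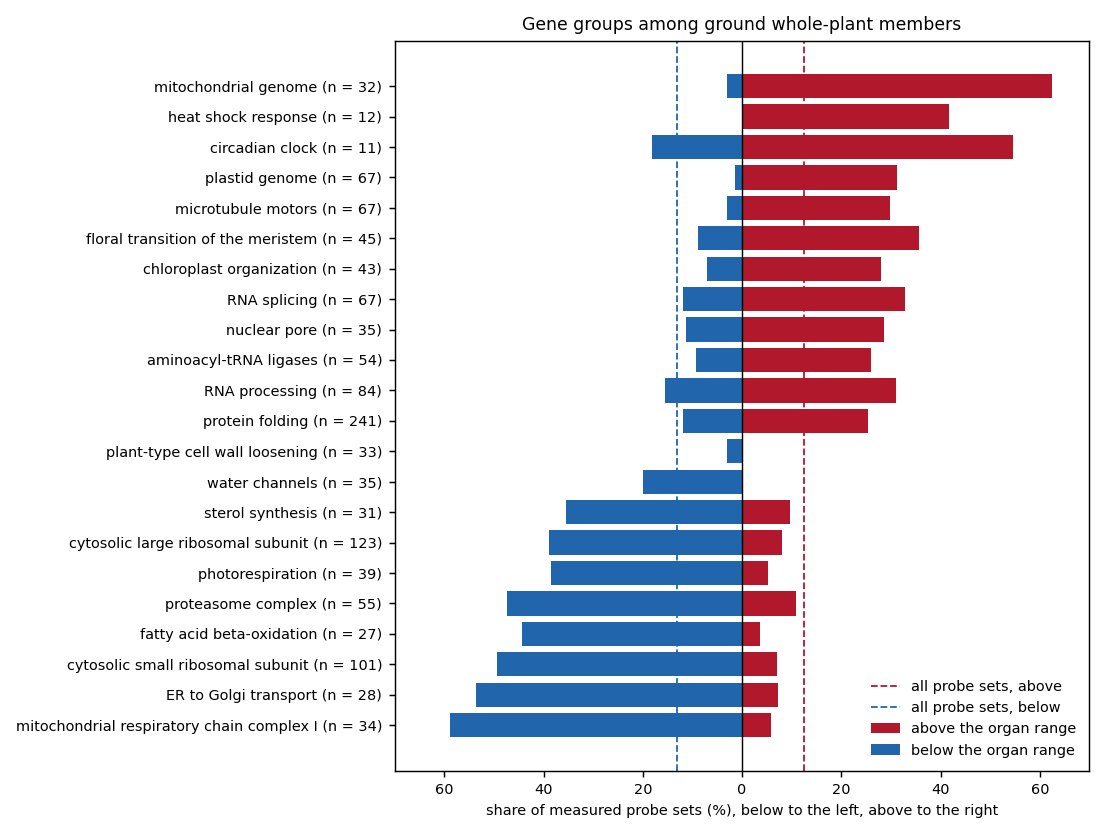
Share of measured probe sets (%) above the organ range (bars to the right) and below it (bars to the left) on the ground arrays, for 18 annotation groups and 4 gene lists; n is the number measured and dashed lines mark the shares over all probe sets. Mitochondrial genome, heat shock and clock genes reach furthest to the right relative to the left, and nuclear-encoded complex I genes furthest to the left.

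For 222 genes, the deposited annotation assigns several probe sets to 1 gene identifier. Of these genes, 95 had a probe set above and 36 had one below, and 13 had both, 1 probe set above and another below the organ range. A gene with several probe sets can be counted through any of them. The counts therefore cannot be set against the 12.5% above and 13.2% below of single probe sets. In all 13, the probe sets are named for different loci that share the gene identifier. In all 13 as well, both probe sets recurred on their own side in flight, and in 10 both were also called by limma. No gene had all of its probe sets below, and 23 had all above. No share to set beside these counts was computed, so nothing is concluded from them. SPA1, a repressor of light signalling, had 134, 97.3 and 110.2 in ground whole plants with the probe set of its own locus, against 307 to 873 (median 487) in organs, and 395, 413 and 373 with its other probe set (AT2G46350, of low mean signal), against 3.48 to 76.8 (median 35.1). SIZ1, a SUMO ligase whose first probe set is of low mean signal, had 192, 144 and 171 in ground whole plants with 1 probe set, against 1.62 to 42 (median 9.04) in organs, and 259, 164 and 318 with the other (AT5G60420), against 318 to 640.1 (median 423). ZIGA4, also of low mean signal, had 337, 212 and 251 in ground whole plants, against 1.4 to 92 (median 6.17) in organs, and 288, 273 and 313 with its other probe set (AT1G08690), against 548 to 1246 (median 767). In flight, the probe sets of SPA1 were -1.76 ± 0.22 log2 units from leaves (adjusted p = 1.1e-05) and 3.04 ± 0.73 from hypocotyls (adjusted p = 0.0044). Whether the probe sets of a pair measure 1 transcript or neighbouring ones was not tested.

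Of the nuclear gene lists, the circadian clock had the largest share of members. The clock is a loop of transcription factors that peak at set times of day, with CCA1 and LHY in the morning. Of 11 clock genes with a probe set of their own, 6 were above (54.5%, against 12.5% of all probe sets) and 2 below, against 13.2% of all, on the ground. CCA1 had 1841, 1226 and 1047 in ground whole plants, against 167 to 467 (median 273) in organs, and 739, 916 and 831 in flight whole plants, against 123 to 453 (median 216) in flight organs, where it was 1.12 ± 0.22 log2 units over leaves (adjusted p = 9.2e-04). LHY had 2415, 1765 and 1801 in ground whole plants, against 308 to 1173 (median 633) in organs, but in flight 902, 1502 and 857 in whole plants overlapped with 236 to 1041 (median 540.3) in organs (adjusted p = 0.22). The morning-phased RVE1 and the evening complex member ELF3 were above in both environments and called higher in flight, by 1.2 ± 0.19 over leaves (adjusted p = 1.3e-04) and 1.45 ± 0.20 over roots (adjusted p = 3.9e-05). RVE8, of low mean signal, also recurred, at 2.02 ± 0.82 log2 units over leaves, but did not pass the test (adjusted p = 0.092), and PRR5 passed (1.42 ± 0.42 over leaves, adjusted p = 0.018) without recurring. GI, an evening gene, had 142, 198 and 220.5 in ground whole plants, against 355 to 709 (median 417) in organs, and in flight its ranges overlapped, at 242, 125 and 172 and 212 to 759.9 (median 551). Its flight difference of -1.35 ± 0.44 from hypocotyls (adjusted p = 0.033) was no longer called without the plate 4 array of flight whole plants (-1.12, adjusted p = 0.158) or the plate 6 array (-1.35, adjusted p = 0.0857). The hour at which each sample was fixed is not given in the sources used here.

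Of 12 heat shock genes, 5 were above (41.7%, against 12.5% of all probe sets) and none below, the others not being members. HSP90.1, a chaperone induced by heat, had 1002, 1267 and 1260 in ground whole plants, against 136 to 408 (median 260.2) in organs, and 1910, 1549 and 3650 in flight whole plants, against 91.6 to 854 (median 468) in flight organs. HSFA2, a heat shock transcription factor of low mean signal, had 144, 99.5 and 377 in ground whole plants, against 2.83 to 54.9 (median 19.5) in organs, and BAG6, a co-chaperone, had 262, 431 and 269, against 34.7 to 176 (median 130.5). HSP90.1, HSFA2, BAG6 and HSP101 recurred in flight and were called higher than roots, the nearest organ, by 1.96 ± 0.60, 2.78 ± 0.80, 1.01 ± 0.33 and 1.26 ± 0.41 log2 units (adjusted p = 0.024, 0.016, 0.032 and 0.032). These calls were close to the threshold, and leaving out arrays was not run for HSP101: the call on HSP90.1 was lost without flight whole plants of plate 2 or 6 (adjusted p = 0.0509 and 0.129), that on HSFA2 without plate 4 or 6 (0.092 and 0.0587), and that on BAG6 without plate 2, 4 or 6 (0.0548, 0.0804 and 0.118). HSP70-4 had 1666, 2066 and 2374 in ground whole plants, against 235 to 1599 (median 718) in organs, and overlapped with the organs in flight (adjusted p = 0.32).

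**Figure D4:**
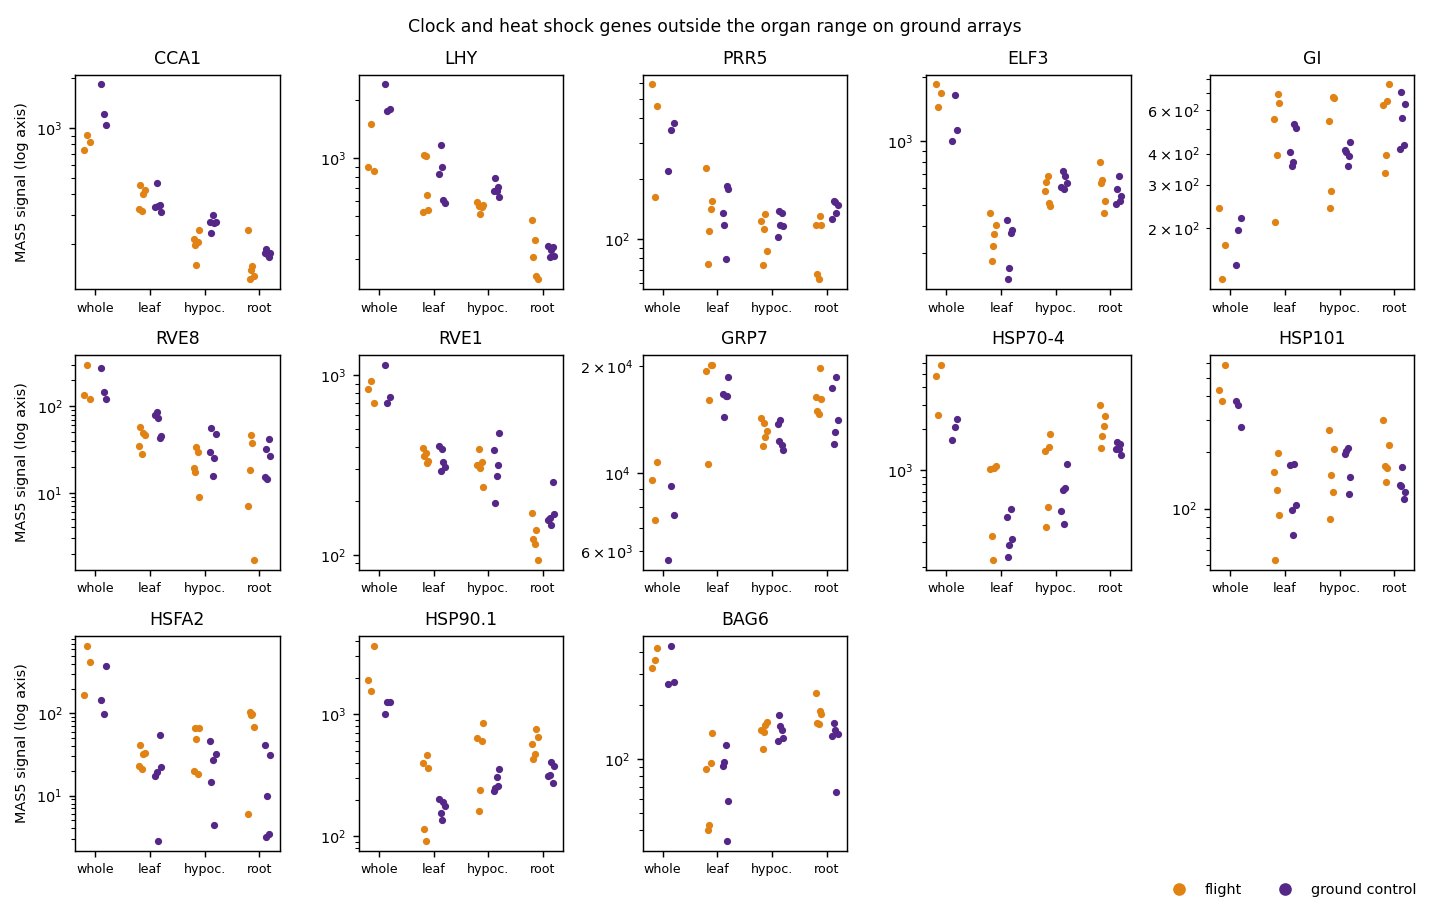
MAS5 signal (log axis) on each of the 36 arrays for the 8 clock and 5 heat shock genes outside the organ range on ground arrays; each panel shows whole plants, leaves, hypocotyls and roots, with flight points left of ground control points. CCA1, RVE1 and ELF3 are higher in whole plants in both environments, whereas LHY, PRR5, GI, GRP7 and HSP70-4 overlap with organs in flight.

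Hypoxia response genes had 3 of 13 below (23.1%, against 13.2% of all probe sets) and none above, and all 3 recurred and were called lower in flight. PCO1 and PCO2, plant cysteine oxidases that sense oxygen, had 114, 178 and 363 and 123, 156 and 134 in ground whole plants, against 457 to 2868 (median 1497) and 197 to 2390 (median 1045) in organs, and in flight they were -1.85 ± 0.31 and -1.94 ± 0.40 log2 units from leaves (adjusted p = 2.2e-04 and 0.0015). SAD6, a hypoxia-induced acyl desaturase, was -2.38 ± 0.38 from roots in flight (adjusted p = 1.5e-04). Of 15 salicylate and defence genes, 3 were above (20% of them, against 12.5% of all probe sets) and 1 below. EDS1 and PAD4, partners in resistance signalling, had 1905, 1452 and 2245 and 871, 736 and 1119 in ground whole plants, against 207 to 516 (median 341) and 60.2 to 364 (median 182) in organs, and were called higher in flight (1.79 ± 0.22 over leaves, adjusted p = 1.0e-05, and 2.09 ± 0.41 over roots, adjusted p = 0.001). NPR1, the salicylate receptor, had 219, 316 and 293 in ground whole plants, against 493 to 908 (median 660.1) in organs, and was -1.46 ± 0.20 from roots in flight (adjusted p = 2.8e-05), while NIMIN1 was above on the ground and not in flight. Of 18 touch and wound genes only WRKY33 was a member (5.56% above, against 12.5% of all probe sets). WRKY33 had 5410, 5662 and 10011 in ground whole plants, against 387 to 3403 (median 1002) in organs. In flight, 1 gene of this list (WRKY33) was called higher and 3 were called lower. Of 11 cold and drought genes only RD29A was a member (9.09% above), with 1200, 1669 and 2038, against 148 to 578 (median 319.5). WRKY33 and RD29A recurred and were called higher in flight (2.07 ± 0.48, adjusted p = 0.0036, and 2.31 ± 0.35, adjusted p = 8.4e-05, over leaves).

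Immune receptors and glucosinolate enzymes are gene families in which Arabidopsis ecotypes are known to vary. Of 23 intracellular immune receptor genes, 2 were above (8.70%, against 12.5% of all probe sets) and 4 below, against 13.2% of all, and 3 of the 6 recurred in flight. RAC1, a low-signal gene for a receptor against white rust, had 142, 128 and 167 in ground whole plants, against 3.85 to 58.9 (median 31.9) in organs, and 117, 179 and 187 in flight whole plants, against 3.81 to 80.2 (median 29.4) in flight organs, which did not pass the test (adjusted p = 0.094, or 0.00153 when the 25th percentile of signals was added before log2). CSA1 and CHS3, receptor genes of low signal, were below on the ground and overlapped with organs in flight (-1.63 ± 0.75, adjusted p = 0.15, or 0.0367 with the plate as a block, and -0.97 ± 0.71, adjusted p = 0.48). RPP1, a low-signal receptor gene, and ADR1-L1, a helper of other receptors, were below in both environments and called lower in flight, by -2.35 ± 0.58 and -0.99 ± 0.19 log2 units from hypocotyls (adjusted p = 0.0059 and 8.9e-04). Of 25 glucosinolate genes, NSP5, a nitrile-specifier protein, was above, with 6133, 7662 and 4855 in ground whole plants, against 281 to 778 (median 395) in organs, and 3.29 ± 0.17 log2 units over leaves in flight (adjusted p = 2.7e-09), while 4 were below (16% of the list, against 13.2% of all probe sets). MYB28, the regulator of aliphatic glucosinolates, and SOT16, a sulfotransferase of the last step of the core, were below in both environments and called lower in flight, by -1.21 ± 0.28 from roots and -1.41 ± 0.26 from leaves (adjusted p = 0.0031 and 5.8e-04). SOT17, a second such sulfotransferase, overlapped with organs in flight and was called (-1.17 ± 0.33 from hypocotyls, adjusted p = 0.015), but not without flight whole plants of plate 4 (adjusted p = 0.0765). CYP83A1, an early enzyme of aliphatic glucosinolate synthesis, had 4475, 4202 and 4226 in ground whole plants, against 6407 to 12099 (median 7778) in organs, and overlapped in flight (adjusted p = 0.21). Of 5 listed genes with known lesions or copy changes in WS, 2 were measured, and only PHYD was a member, below. PHYD, a phytochrome that is non-functional in WS, had 38, 88.9 and 59.5 in ground whole plants, against 119.7 to 276 (median 165) in organs. In flight it had 78.7, 57.8 and 90.8 in whole plants, against 89.7 to 207 (median 138) in organs, so it overlapped and did not recur. Its flight difference did not pass (-0.74 ± 0.28, adjusted p = 0.07) except after quantile normalization (-1.19, adjusted p = 0.00422).

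Of 12 flowering time genes, 2 were above (16.7%, near the 12.5% of all probe sets) and none below. SOC1, a promoter of flowering, had 600.0, 659 and 493 in ground whole plants, against 71.3 to 200.3 (median 135) in organs, and was 1.41 ± 0.34 over leaves in flight (adjusted p = 0.0043); SVP, a repressor, was above on the ground only, with 454, 566 and 352, against 62 to 322 (median 244). In the cell cycle list of 9 genes, 2 were above and 2 below (22.2% each, against 12.5% and 13.2% of all probe sets). KN, a cytokinesis syntaxin, was above and AUR1, a mitotic kinase, below, both in both environments. MCM2, a subunit of the replicative helicase, and CDKB2;2, a mitotic kinase, were members on the ground only, with flight differences of 0.09 ± 0.34 from leaves (adjusted p = 1) and -0.58 ± 0.23 from leaves (adjusted p = 0.082, or 0.0445 without flight whole plants of plate 2). CHI and CHS, the first enzymes of flavonoid synthesis, had 142, 108 and 117 and 722, 372 and 333 in ground whole plants, against 352 to 1761 (median 639) and 1010 to 5385 (median 2737) in organs, and CHI recurred in flight (-2.0 ± 0.34 from hypocotyls, adjusted p = 2.4e-04) while CHS did not (-1.4 ± 0.58, adjusted p = 0.1, or -1.31, adjusted p = 0.0205, with the plate as a block, and -2.1, adjusted p = 0.0151, without flight whole plants of plate 4). Of 9 genes used as references in quantitative PCR, none was above, 4 were below (44.4%, against 13.2% of all probe sets) and the others were not members. The 4 are bright, with ground organ medians from 1214 (PP2AA3) to 12525 (GAPC1). Over all probe sets, 28.2% were below in the ninth of 10 classes by mean ground signal and 35.8% in the brightest. Nothing about the list is concluded from its share. PP2AA3 had 398, 249 and 414 in ground whole plants, against 926 to 1612 (median 1214) in organs, and UBC21 had 630.3, 841 and 746, against 1826 to 3184 (median 2527). In flight they were -1.64 ± 0.13 and -1.79 ± 0.16 log2 units from leaves (adjusted p = 1.4e-07 and 3.6e-07). ACT8, an actin, also recurred and was called lower (-0.72 ± 0.17 from leaves, adjusted p = 0.0051), while GAPC1, a glycolytic dehydrogenase, did neither (-0.39 ± 0.18 from leaves, adjusted p = 0.17).

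Most markers of the organs themselves were not members. The rule makes this likely, because a marker has a wide range over the organs, so nothing is concluded from it. The median organ range on the ground was 1.63 log2 units for members above, 1.14 for members below and 3.55 for the other probe sets. None of 17 photosynthesis genes was a member, and on the ground 16 of them had a whole-plant mean between the root and the leaf mean; their median log2 signal was 13.15 in whole plants, and leaves had 14.61, hypocotyls 12.45 and roots 9.25. Of 20 root markers, 1 was a member: WER, a root epidermis transcription factor of low mean signal, was above with 766, 854 and 589 in ground whole plants, against 1.21 to 298 (median 31.7) in organs, and its flight difference of 1.15 ± 0.99 over roots did not pass the test (adjusted p = 0.6, or 0.00774 when the 25th percentile of signals was added before log2). Root markers had a median log2 signal of 6.11 in ground whole plants, and leaves had 4.49, hypocotyls 4.17 and roots 8.19, and 11 of the 20 had a whole-plant mean between the leaf and the root mean. The shoot apex was a part of the whole seedlings. The titles of the leaf arrays read SHOOTS, so whether these samples held the apex is not settled by the labels. Of 21 shoot apex and organ boundary genes, 1 was above (CLV1, a receptor that limits stem cell number, with 2554, 2266 and 2147 in ground whole plants, against 598 to 1097 (median 745) in organs) and 1 below (ANT, an organ growth factor, with 204, 163 and 120.4, against 429 to 2442 (median 992)). The mean log2 signal over the 21 genes was 6.17 to 6.30 in ground whole plants and 5.23 to 7.23 in ground organs. None of 19 seed maturation genes was a member, and their mean was 3.38 to 3.91 in ground whole plants and 2.39 to 4.64 in ground organs.

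Members above and below differed in signal and in gene length. Over 10 classes of nearly equal size by mean ground signal, the share below was 0.22% in the dimmest class and 35.8% in the brightest, while the share above was 3.03% in the dimmest, highest in the eighth (401 of 2275 probe sets) and 10.2% in the brightest. By gene length in the reference table of the TAIR10.1 assembly, the share above was 6.08% in the class of shortest genes and 18.8% in that of the longest, and the share below was 6.80% and 11.5%, with its highest value of 17.0% in the fifth. Low-signal probe sets made up 25.9% of members above and 4.17% of members below. Median gene length was 2627 bases for members above, 2256 for members below and 2269 for all probe sets with a length. Probe sets with a nuclear locus that the reference table lacks had 116 of 500 above (23.2%) and 37 below (7.40%).

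**Figure D5:**
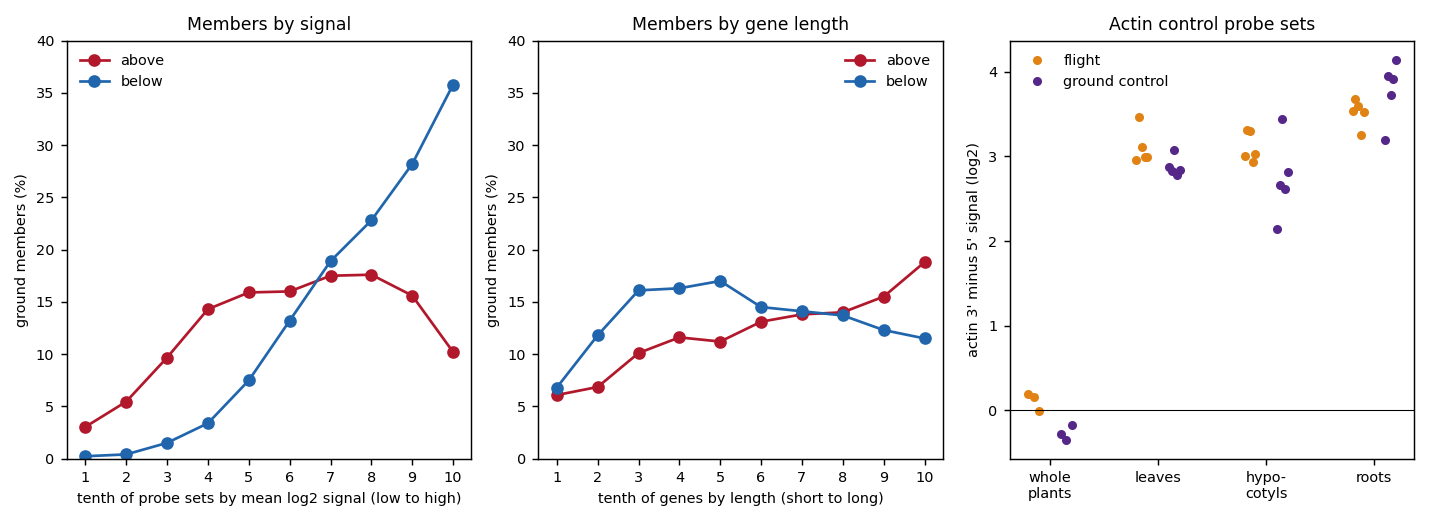
Share of ground members (%) above and below the organ range by class of mean log2 signal (left, 10 classes) and of gene length (middle), and the actin 3′ minus 5′ log2 signal on every array (right; flight points left of ground control points). The share below climbs with signal, the share above climbs with length, and whole plants lie near 0 in the actin measure where all organ arrays lie above 2.

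Members were spread over the genome. Between 11.5% and 12.8% of probe sets on each of the 5 chromosomes were above, and between 12.2% and 14.4% below. With 1 probe set per gene, 13.6% of the genes that follow a member above along the chromosome were also above, against 12.1% of all 21094 genes, and 16.0% of those that follow a member below were also below, against 13.5%. The longest run above was of 4 genes (NET1D, MCCA, AT1G03100 and TRM82), all of which recurred in flight, and the longest below was of 6 (MES14, OHP2, AT1G34010, AT1G34020, AT1G34030 and SAMC2), of which 3 recurred.

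Between whole plants and individual organs, the nearest organ of members above was spread, hypocotyls having the highest organ mean for 37.3%, leaves for 33.1% and roots for 29.6%. For members below, leaves had the lowest organ mean for 58.1%, hypocotyls for 21.1% and roots for 20.8%. At the edge of the rule, AT1G61170 was just inside the members above, with 395, 422 and 442 in ground whole plants, against 101 to 394 (median 194) in organs, and AT1G70280 just outside, with 1212, 788 and 902, against 254 to 789 (median 557). GLYR1, a glyoxylate reductase, was just inside the members below, with 1660, 1479 and 1464, against 1660 to 2389 (median 1887), and HDA6, a histone deacetylase, just outside, with 402, 513 and 434, against 512 to 870.1 (median 637). Whole-plant arrays resembled each other across environments more than they resembled organs: the correlation of log2 signals over all probe sets was 0.88 to 0.92 between ground and flight whole plants, and 0.73 to 0.80 between ground whole plants and ground organs. These correlations are across genes, which are not independent replicates. Within single plates, where 1 flight whole-plant array meets the 3 or 6 organ arrays of its own plate, 91.3% to 96.6% of members above and 91.8% to 97.2% of members below lay outside the organs on their own side, against 27.1% to 30.1% and 24.9% to 32.3% of all probe sets.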

How the data were processed

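Total RNA of 36 samples was hybridized to Affymetrix ATH1 arrays, 1 colour and 1 sample an array. The authors summarized the scans with MAS5 (Affymetrix Expression Console, no version stated in the sources used here) and deposited 1 linear intensity value per probe set and array. Further deposited tables hold their p-values, q-values, fold changes and numbers of present calls, which were not used, apart from the annotation columns of 1 table. The values of 1 flight whole-plant array (plate 2) are rounded in the deposited table.

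The deposited values were used as log2 signals, with nothing added. The 64 control probe sets were left out of 22810, and 22746 were compared. Gene names came from the deposited annotation and from the RefSeq gene table of the TAIR10.1 assembly, which held the locus of 22091; 819 probe sets are assigned to several genes and were not named.

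Flight whole plants were tested against each organ with limma 3.58.1 (R 4.3.3; a linear model of 4 groups over 18 arrays with empirical Bayes variances, both directions). The largest of the 3 p-values was adjusted over all probe sets by the Benjamini-Hochberg method. The procedure was tested on simulated data, in which whole plants were an equal mix of the organs except for 200 changed probe sets. It recovered 50% of those placed 1 log2 unit outside the organs and 86% of those placed 2 units outside, with 0 false calls. A member that was not called in flight may therefore still lie outside the organs. Members, gene lists and tests were chosen with earlier results of these data known. The genes named by rule were, among members of 1 locus outside the lowest 40% of mean ground signals, the 12 on each side with the widest gap, then the 3 or fewer list members with the widest gaps, per list, the longest runs of neighbouring members and the probe sets at the edge of the rule. Further list members, genes with probe sets on both sides and the annotation group examples were chosen after their values were seen. List members of low mean signal were kept and are given as such.

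Whole plants and organs share plates per the labels. Deviations of whole plants and organs from the same flight plate correlated at 0.01 to 0.10, against -0.06 to 0.02 for different plates, and the plate entered as a block in an alternative. The other alternatives were quantile normalization, equal 75th percentiles, adding 38.55 (the 25th percentile) before log2, removal of low-signal probe sets, a gap of at least 1, leaving out each array, other variance settings, all 36 arrays in 1 model, the mean of the organs and the methods' t-test. Arrays give no depth, so their number limits the precision, and the p-values measure the spread between these samples, which may be technical.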

Additional observations from a re-analysis of the deposited data

Results flagged for a closer look

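By Dixon's test at the 95% level, in 48 groups of 5 organ arrays and 8 array measures, 4 values stood apart; chance flags about 1 in 20. The mean log2 signal of mitochondrial probe sets was 8.41 in ground leaves of plate 2, against 6.69 to 6.97 in the other ground leaf arrays; this array sets the upper end of the ground organ range for those transcripts. The mean log2 signal of plastid probe sets was 9.40 in flight roots of plate 2, against 8.30 to 8.46 in the others. The 25S ribosomal RNA log2 signal was 13.42 in ground hypocotyls of plate 6, sample 1, against 12.84 to 12.96 in the others. The GAPDH 3′ minus 5′ log2 difference was 1.35 in ground hypocotyls of plate 4, sample 2, against 0.26 to 0.51 in the others.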

How the results depend on the processing

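Counts of members stayed within 1.5 times under every alternative but 1: with whole plants at least 1 log2 unit outside, 874 members lay above and 627 below, of which 664 and 399 recurred at the same distance in flight. Leaving out 1 array at a time gave 2866 to 3265 members above and 3013 to 3516 below, 2208 to 2370 and 2303 to 2465 that recurred, and 1747 to 2095 and 2226 to 2599 called in flight. With the plate as a replicate block, 2062 members above and 2485 below were called in flight, or 2060 and 2451 with the plate as a random block; the fixed block added calls on CSA1 (-1.73, adjusted p = 0.0367) and CHS (-1.31, adjusted p = 0.0205) and changed no other call of the 64 genes followed. The methods' t-test called 1698 and 1957 at an unadjusted p under 0.01, 1503 and 1648 with their fold change as well, and 1665 and 1910 after Benjamini-Hochberg adjustment. Quantile normalization moved the median difference between whole plants and organs to -0.10 on the ground, against 0.03, and shared 2693 members above and 2888 below. SVP changed sign in flight under quantile normalization (0.02), a shared 75th percentile (0.07) and without flight whole plants of plate 4 or 6 (0.42 and 0.08); it was not called in any of these. With 3 whole-plant arrays per environment, calls of single genes near the threshold depended on 1 array, as given for GI, HSP90.1, HSFA2 and BAG6; SOT17 was lost without plate 4 (adjusted p = 0.0765). Low mean signal was found in 739 members above and 125 below; their gaps rest on dim organ or whole-plant signals.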
